A study of Mus musculus with 6 samples.

Results

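The cells described here were 842 Ly6c2+Ccr2+ cells, selected by their RNA from 12139 cells of mouse inguinal lymph nodes that passed quality control. A cell was taken when it held at least 3 Ly6c2 UMIs (unique molecular identifiers, each standing for 1 counted mRNA molecule) and at least 1 Ccr2 UMI, and little RNA of the complement C1q macrophage genes. It could show at most 1 of the nonclassical monocyte genes Ace, Treml4, Spn and Eno3, at most 1 of the interferon-induced genes Ifit1, Ifit2, Ifit3 and Rsad2, and no UMI of Nos2, Saa3, Cd209a or Cd3e. The selection was meant to hold classical monocytes, and the genes it used are described without a test.

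Classical monocytes are short-lived cells made in the bone marrow that leave it through the chemokine receptor CCR2 and travel in blood with high surface Ly-6C, a GPI-anchored protein. In tissues they can become macrophages or antigen-presenting cells, and in blood some become nonclassical monocytes, which lose Ly-6C, depend on the transcription factor Nr4a1 and patrol the vessel wall. Chil3, which encodes a secreted chitinase-like protein, is widely used beside Ly6c2 and Ccr2 to mark the classical cells.

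All 4 mice carried Cd169Cre/+ and Tdtomato fl/fl on a C57BL/6J background and were over 6 weeks old, so that cells with a history of CD169 (Siglec1) promoter activity were red. Live CD11b+TOM+ cells were sorted from the inguinal nodes of 2 unimmunized mice and of 2 mice 9 days after immunization with an antigen holding hen egg lysozyme, given with adjuvant after transfer of lysozyme-specific B cells and ovalbumin-specific T cells. Each mouse was marked by 1 hashtag antibody, and the cells were pooled and run as 2 10X captures with CITE-seq, in which transcripts and DNA-tagged antibodies are read from each cell together. The Cre marks a lineage history and not present expression, and the sort on CD11b does not keep out NK cells or neutrophils.

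Values for the 4 mice are given throughout in the order unimmunized mouse 1, unimmunized mouse 2, immunized mouse 1 and immunized mouse 2. The Ly6c2+Ccr2+ cells numbered 74, 32, 305 and 431, and their summed libraries held 618249, 285318, 3384034 and 5287964 UMIs. The median cell had 7872, 8868, 10948 and 12017 UMIs, so both immunized mice were counted more deeply and their values have the smaller counting error.

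The mouse of origin and the surface proteins were read from short DNA tags on the antibodies. The tags that carry the results below are shown as deposited, 5′ to 3′, and no base is marked in capitals because each whole tag is the label. Hashtags 1 and 2 marked the unimmunized mice, and hashtags 3 and 4 the immunized mice.
Hashtag 1: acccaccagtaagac
Hashtag 2: ggtcgagagcattca
Hashtag 3: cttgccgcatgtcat
Hashtag 4: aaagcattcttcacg
Ly-6C antibody: aagtcgtgaggcatg
CD11c antibody: gttatggacgcttgc
CD169 antibody: attgacgacagtcat

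In GRCm38 the selecting genes Ly6c2 (ENSMUSG00000022584) lies at chr15:75108158-75111970 on the minus strand and Ccr2 (ENSMUSG00000049103) at chr9:124101950-124113557 on the plus strand. Chil3 (ENSMUSG00000040809), which the selection did not use, lies at chr3:106147554-106167564 on the minus strand. Ly6c2 has a near-identical neighbour, Ly6c1 (chr15:75044018-75048830), so the split of their reads is uncertain, and the same holds for Ear2 and for the Ly6i, Ly6a and Gbp families named below.

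The selection took a slice of a continuous range. Its cells had a median of 8 Ly6c2 UMIs (range 3 to 162), 11 Ccr2 UMIs (1 to 43) and 5 Csf1r UMIs (0 to 20). Just outside it, 162 cells passed every other criterion with 2 Ly6c2 UMIs, and just inside, 114 cells had 3. The summed level of Plac8, a monocyte gene, was 3286 CPM (UMIs scaled to a common library total) in the first and 4153 CPM in the second, and Lyz2 was 25633 and 26047 CPM. Ly6c2 RNA was not restricted to the selected cells, since 3109 of 7693 other Csf1r+ cells (40.4%) also had 3 or more Ly6c2 UMIs.

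The selected cells were not all monocytes by their other RNA, and the mixture differed between mice. Of the 842 cells, 58 had no UMI of Csf1r, the receptor for the growth factor that monocytes and macrophages need, and 50 carried 2 or more of the 4 NK cell genes Ncr1, Klrb1c, Nkg7 and Gzma. The NK genes were in 31 of 74 cells (41.9%), 6 of 32 (18.8%), 9 of 305 (2.95%) and 4 of 431 (0.928%). Both unimmunized mice lay above both immunized mice.

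The 47 cells with 3 or more NK genes had other RNA unlike that of the remaining members. Of them, 41 had no Csf1r UMI. Their median was 2 UMIs of the MHC class II gene H2-Ab1 and 5 of the lysozyme gene Lyz2, against 118 and 317 in the other selected cells, at a median depth of 5403 against 11520 UMIs. Summed over the selected cells, Gzma, which encodes granzyme A and was the most abundant of the 4 NK genes, was at 1846, 715, 155 and 12.3 CPM. Of neutrophil genes, 2 or more of 7 were found in 57 cells, namely 2, 0, 20 and 35 in the 4 mice, and 3 or more in 3 cells. The calprotectin genes S100a8 and S100a9 came almost wholly from 1 cell of unimmunized mouse 1 and 1 of immunized mouse 2, which held 4526 of their 4637 UMIs, while 760 cells had neither. B cell genes (2 or more of 4) were found in 10 cells, T cell genes (2 or more of 4) in 4 and dendritic cell genes (2 or more of 5) in 13. Macrophage genes (2 or more of 6) were found in 343 cells (40.7%) and nonclassical monocyte genes (2 or more of 6) in 166 (19.7%).

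Leaving out the 76 cells with 2 or more genes of an NK, B, T or dendritic list, or 20 or more S100a8 and S100a9 UMIs, left 766 cells, namely 36, 25, 288 and 417. Values without these cells are given beside the main results, with the same cells left out of the populations compared (6857 of the 7693 other Csf1r+ cells remained). Cells with macrophage, nonclassical monocyte or other neutrophil genes stayed in. This alternative was chosen after seeing the data.

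**Figure D1:**
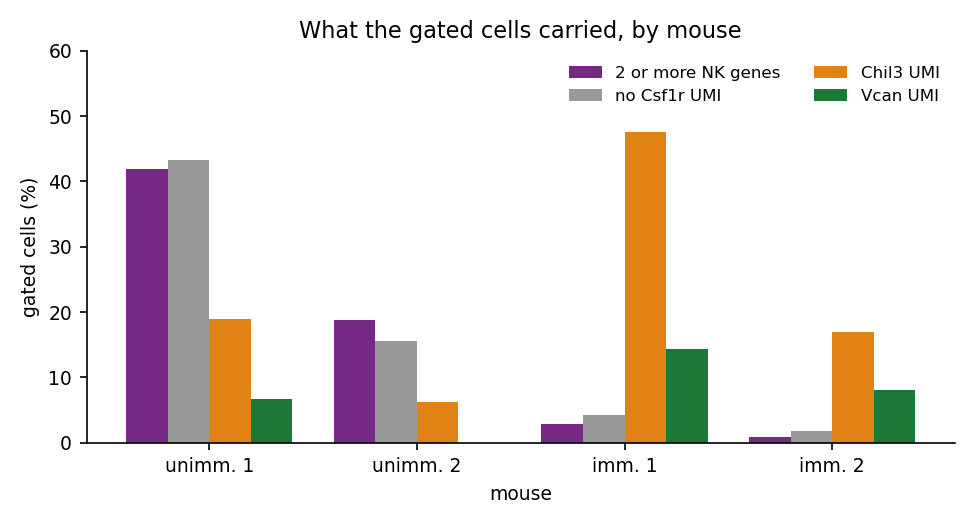
Share of the Ly6c2+Ccr2+ cells of each mouse (%) with 2 or more of 4 NK genes, with no Csf1r UMI, with a Chil3 UMI and with a Vcan UMI; bars start at 0 and stand for 74, 32, 305 and 431 cells. The NK genes fall from 41.9% in unimmunized mouse 1 to 0.928% in immunized mouse 2, and Chil3 stands out in immunized mouse 1 at 47.5%.

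Of the classical monocyte genes that the selection did not use, Plac8 and Lyz2 had a UMI in nearly every cell and Chil3 did not. Plac8 was detected in 819 of 842 cells and Lyz2 in 841. No background share is given for either gene, so detection alone does not show that each cell made them. The 47 cells with 3 or more NK genes still had a median of 5 Lyz2 UMIs. A Chil3 UMI was found in 234 of 842 cells (27.8%), or 14 of 74, 2 of 32, 145 of 305 and 73 of 431. Vcan, which encodes the matrix proteoglycan versican and is high in classical monocytes of blood, had a UMI in 84 cells (9.98%), none of them in unimmunized mouse 2.

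In each of the 4 mice Chil3 was more often detected in the cells with 2 or more of Ace, Treml4, Spn and Eno3, called the nonclassical gate here, than in the Ly6c2+Ccr2+ cells. That gate also asked for Csf1r, little C1q and no Cd3e, and its cells are counted among the other Csf1r+ cells too. Chil3 had a UMI in 520 of the 1279 nonclassical gate cells (40.7%) and in 1544 of the 7693 other Csf1r+ cells (20.1%), whose median depths were 10303 and 11598 UMIs against 11277 in the selected cells. After each cell was thinned to 3000 UMIs the shares were 17.3% of 838 Ly6c2+Ccr2+ cells, 29.4% of 1265 nonclassical gate cells and 12.6% of 7400 other Csf1r+ cells. Cells with B cell genes and no Csf1r, which should lack Chil3, had a Chil3 UMI in 5 of 275 (1.82%, median 4332 UMIs). Chil3 thus did not single out the cells that the selection took, and they are called by their selecting genes.

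The first question of the design was whether immunization changed how many such cells there were. The Ly6c2+Ccr2+ cells made up 2.62% of the sorted cells (exact 95% binomial interval 2.06 to 3.27) and 5.96% (4.11 to 8.31) in the unimmunized mice, and 7.53% (6.73 to 8.38) and 9.13% (8.32 to 9.99) in the immunized mice. Both immunized mice lay above both unimmunized mice, by 4.04 percentage points on average (8.33 ± 1.13 against 4.29 ± 2.36, SD, n = 2 each). The exact permutation test gave p = 0.33, the smallest that 2 mice against 2 allow, so the design could not reach significance. Intervals cover counting error only. The selection asks for raw UMIs, and the median kept cell held 5877, 6280, 9674 and 12728 UMIs in the 4 mice. The selection was also made on cells of at least 3000 UMIs, each thinned to 3000. The shares were then 3.60%, 6.73%, 8.87% and 7.60%, a difference of 3.07 points (exact permutation p = 0.33). Both immunized mice stayed the highest, with unimmunized mouse 2 close to immunized mouse 2.

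Counted among Csf1r+ and selected cells alone, the order was gone. The shares were 6.44%, 11.6%, 10.7% and 10.1%, a difference of 1.37 points (exact permutation p = 1), and unimmunized mouse 2 was the highest. With cells of other lineages left out of the selected cells and of the cells they were counted among, the shares of Csf1r+ cells were 4.72%, 11.3%, 11.2% and 10.2%, a difference of 2.75 points (exact permutation p = 1), and unimmunized mouse 2 was again the highest. Of all cells the difference was then 3.99 points (exact p = 0.33, again the smallest possible). When Csf1r was also asked of the selected cells, the shares of Csf1r+ cells were 3.76%, 10%, 10.3% and 9.96%. That difference was 3.24 points (exact permutation p = 0.67). Immunized mouse 1 was then the highest, as it was in capture 2 alone (11.9%).

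**Figure D2:**
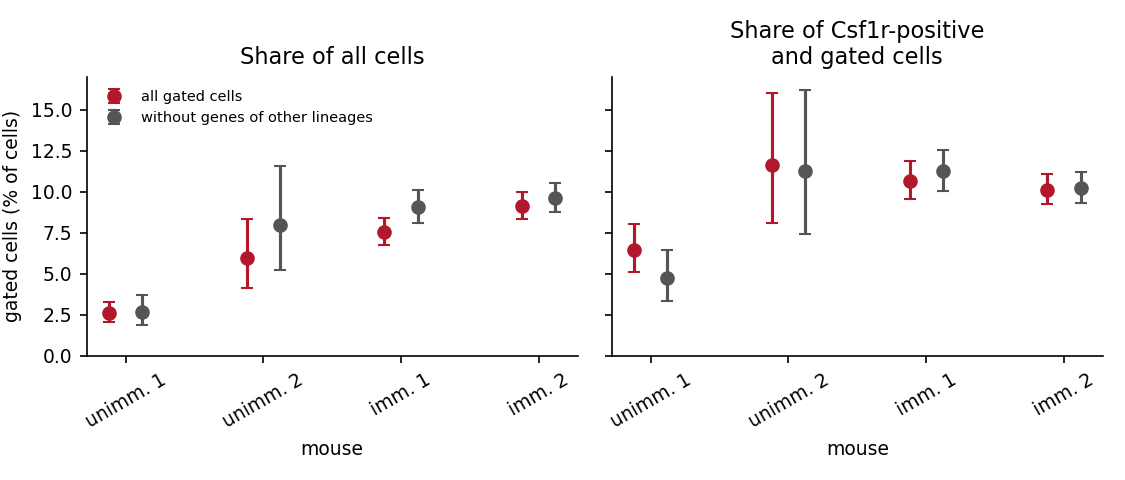
Share of Ly6c2+Ccr2+ cells (%) in each mouse, of all cells (left) and of Csf1r+ and selected cells (right), with all cells in red, cells of other lineages left out of both counts in grey, and exact 95% binomial intervals as bars. Of all cells the 2 immunized mice are the highest, while of Csf1r+ and selected cells unimmunized mouse 2, at 11.6%, lies above both. The right panel counts selected cells with no Csf1r UMI too. With Csf1r asked of them (not drawn), unimmunized mouse 2 was at 10% and immunized mouse 1 at 10.3%.

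Surface Ly-6C was higher on the Ly6c2+Ccr2+ cells than on other Csf1r+ cells of the same mouse, in 4 of 4 mice. This is a separate reading, because the selection used RNA alone. The signal, a centred log ratio (the natural log of 1 antibody's count plus 1 over the mean log of all 6 in that cell), averaged 2.58, 3.68, 3.54 and 3.40 on the selected cells, and the difference from the other Csf1r+ cells was 0.863 ± 0.215 (SD, n = 4 mice; 0.632 to 1.15). The exact sign-flip test over mice gave p = 0.13, the smallest that 4 mice allow, and 0.25 after adjustment over the 6 antibodies. Without the cells of other lineages the difference was 0.998.

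Against the nonclassical gate cells the Ly-6C difference was smaller, 0.262 ± 0.283 (SD), and was positive in 3 of 4 mice (exact p = 0.25). Without the cells of other lineages it was 0.452 ± 0.290 and positive in 4 of 4 mice (exact p = 0.13). The nonclassical gate did not keep out Ly6c2, and 627 of its 1279 cells (49.0%) had 3 or more Ly6c2 UMIs.

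Across all Csf1r+ cells the antibody followed the RNA in each mouse. Cells without a Ly6c2 UMI had mean Ly-6C signals of 1.41, 1.85, 1.88 and 2.08, those with 3 to 5 UMIs 2.49, 3.26, 3.09 and 2.93, and those with 11 or more 3.17, 4.11, 3.89 and 3.70. In all 4 mice each bin of Ly6c2 UMIs had a higher mean than the bin before it.

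**Figure D3:**
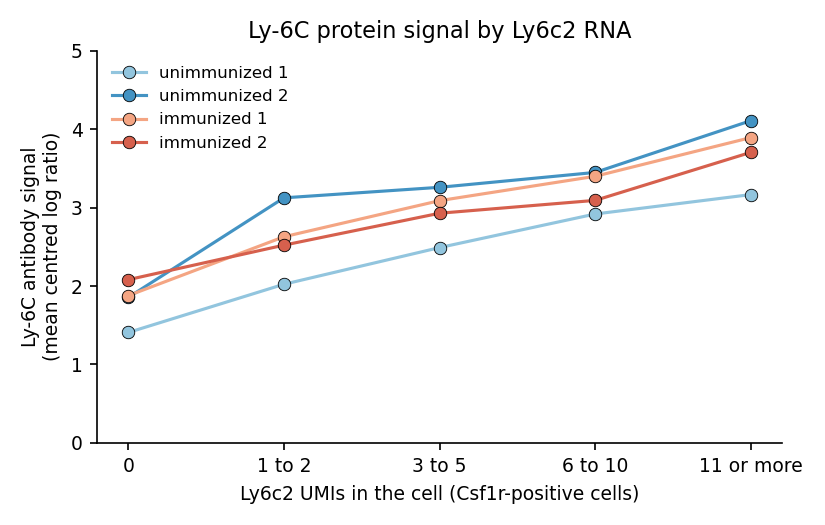
Mean Ly-6C antibody signal (centred log ratio) of Csf1r+ cells by their number of Ly6c2 UMIs, 1 line per mouse. All 4 lines climb from the bin without Ly6c2 (1.41 to 2.08) to the bin of 11 or more UMIs (3.17 to 4.11), and unimmunized mouse 1 has the lowest value in each bin.

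The centred log ratios of 1 cell add up to 0, so a higher Ly-6C value lowers the other 5 on average by construction, and their differences are not separate findings. CD11c, an integrin subunit high on dendritic cells and many macrophages, was lower on the selected cells in 4 of 4 mice (-0.416 ± 0.235, SD), and so was CD68, a lysosomal glycoprotein of macrophages (-0.160 ± 0.120), each with exact p = 0.13. F4/80 (-0.163), CD169 (-0.0893) and Ly-6G, a neutrophil protein (-0.0342), were lower in 3 of 4 mice, with exact p of 0.25, 0.375 and 0.5. Without the cells of other lineages CD11c was lower in only 3 of 4 mice (-0.375, exact p = 0.25), while CD169 was lower in 4 of 4 (-0.205, exact p = 0.13). Against cells with 2 or more Csf1r UMIs, a choice extended to the antibodies after seeing the data, CD169 turned to 0.0963, higher in 3 of 4 mice, and Ly-6G to 0.00474. On an uncentred scale, the log2 of the mean antibody count plus 1, Ly-6C differed by 0.778 and was higher in 4 of 4 mice. On that scale CD11c (-1.06), CD68 (-0.49), CD169 (-0.40) and F4/80 (-0.33) were lower in 4 of 4 mice, each with exact p = 0.13, and Ly-6G (-0.31) in 3 of 4.

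The sort asked for a CD169 history. The median CD169 antibody count was 36, 6.5, 3 and 3 per cell, higher in both unimmunized than in both immunized mice. Without the cells of other lineages it was 7, 6, 3 and 3. The other Csf1r+ cells had medians of 31, 9, 4 and 3 and the nonclassical gate cells 11, 6, 3 and 3, the same order of mice. Siglec1 RNA had a UMI in 123 of 842 cells and the Tomato transcript in 58.

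The next comparison asked how the Ly6c2+Ccr2+ cells differed from the 7693 other Csf1r+ cells of the same nodes. With the mouse as a block they had more RNA of the monocyte genes Plac8 and Lyz2 and of Ly6i, a Ly-6 family gene, and less of the chemokine gene Ccl8 and the macrophage factor gene Maf. UMIs were summed for each mouse and population and tested with edgeR. In summed counts, fewer cells of a type and less RNA per cell cannot be told apart.

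With libraries treated as independent, 1 of 10982 genes (0.00911%) passed the adjusted threshold of 0.05, and 766 had an unadjusted p under 0.05. With the mouse as a block, which uses that both populations came from the same animals, 133 genes were higher (1.21%) and 278 lower (2.53%). DESeq2 called 31. Genes that vary with the selecting genes from cell to cell differ here through the selection, so these counts describe how steadily the selected cells differed over mice. Differences are given as log2 differences of the fitted level with their standard error (SE) and Benjamini-Hochberg adjusted p.

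The gene that passed without the block was H2-M2 (ENSMUSG00000016283; chr17:37480851-37483552), a nonclassical MHC class I gene. It was at 0, 7.01, 2.36 and 5.67 CPM in the Ly6c2+Ccr2+ cells and 63, 56.8, 55.6 and 75.1 CPM in the other Csf1r+ cells, and the groups did not overlap. The selected levels rest on 0, 2, 8 and 30 UMIs. In the nonclassical gate cells it was also below the other Csf1r+ cells, at 15.5, 2.35, 13 and 39 CPM. That was lower than in the selected cells for unimmunized mouse 2 and higher for the other mice. The log2 difference was -4.33 ± 0.40 SE, adjusted p = 0.0102, and -4.04 ± 0.39 SE, adjusted p = 0.00875 without cells of other lineages.

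In the blocked fit of all selected cells the largest rises were in genes of neutrophils and NK cells, S100a9 (3.12 ± 0.61 SE, adjusted p = 0.00327), S100a8 (2.90 ± 0.56 SE, adjusted p = 0.00282) and Gzma (1.94 ± 0.18 SE, adjusted p = 1.67e-07). S100a9 was at 1482, 0, 3.25 and 295 CPM against 44.1, 2.94, 58.2 and 28.1 CPM in the other Csf1r+ cells. Both S100 genes were thus lower in unimmunized mouse 2 and immunized mouse 1. The blocked values that follow are therefore those without cells of other lineages, in which 93 of 10624 genes (0.875%) were higher and 183 (1.72%) lower. Without the block and without those cells, H2-M2 was again the 1 gene that passed among those the selection had not used.

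Of 24 classical monocyte genes, 9 were higher and none lower, where 0.875% of all genes were higher and 1.72% lower, with a median log2 difference of 0.32 against -0.04 over all genes tested. Plac8, which encodes a small cysteine-rich protein, was at 5292, 4211, 5832 and 5209 CPM, and at 2898, 3028, 4547 and 3453 CPM in the other Csf1r+ cells. It was higher in each of the 4 mice (0.58 ± 0.06 SE, adjusted p = 1.21e-07).

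Lyz2, the lysozyme of myeloid cells, was at 27037, 21885, 29915 and 27715 CPM, and at 16690.2, 17836, 23374 and 23444 CPM in the other Csf1r+ cells (0.40 ± 0.06 SE, adjusted p = 5.26e-05). It too was higher in each mouse, though the ranges of the 2 populations overlapped. Ms4a4c, a membrane protein gene of monocytes (0.49 ± 0.06 SE, adjusted p = 4.18e-06), and Ifitm3, which blocks virus entry (0.34 ± 0.06 SE, adjusted p = 0.000155), also passed.

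Of 8 Ly-6 family genes listed, 3 could be tested, and these 3 were higher, where 0.875% of all genes were. The selection asked for Ly6c2, a gene of the same family, and nothing is read from that count. Ly6i (chr15:74979534-74983430) was at 1044, 2238, 1615 and 2272 CPM against 750.4, 1075, 1230.2 and 1832 CPM (0.57 ± 0.07 SE, adjusted p = 7.39e-07), Ly6e gave 0.30 ± 0.06 SE, adjusted p = 0.00112, and Ly6a (chr15:74994877-74998031), which encodes Sca-1, gave 0.39 ± 0.07 SE, adjusted p = 0.00128. Ly6a was lower than in the other Csf1r+ cells in immunized mouse 2, at 352, 823, 518 and 1098 CPM against 209.6, 476, 457 and 1244 CPM over the 4 mice.

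Chil3 itself did not pass, at 205, 45.5, 433 and 35.7 CPM against 117, 103, 396 and 24.4 CPM (0.30 ± 0.14 SE, adjusted p = 0.328). Neither did Hp, the haptoglobin gene (0.38 ± 0.14 SE, adjusted p = 0.199), Vcan (1.13 ± 0.37 SE, adjusted p = 0.124) or F13a1, which encodes a clotting factor subunit (0.34 ± 0.23 SE, adjusted p = 0.603).

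Over all genes tested 1.72% were lower and 0.875% higher. Of 18 tissue macrophage genes tested, 9 were lower and none higher (median -0.98), and of 10 dendritic cell genes 3 were lower (median -0.94). Both lists sit close to genes the selection barred, C1q and Cd209a, and nothing is read from their counts. Apoe, the lipid carrier of macrophages, was at 1044, 207, 623 and 281 CPM against 1480.2, 1262, 1190 and 439 CPM (-0.97 ± 0.13 SE, adjusted p = 5.09e-06), and unimmunized mouse 2 was the lowest. Timd4, a receptor for dying cells, gave -2.26 ± 0.26 SE, adjusted p = 4.27e-07, Mrc1, the mannose receptor, -1.63 ± 0.28 SE, adjusted p = 0.000307, and Vcam1, an adhesion molecule, -0.72 ± 0.15 SE, adjusted p = 0.00253.

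Among other genes that fell furthest were the chemokine gene Ccl8 (-3.74 ± 0.18 SE, adjusted p = 1.15e-15) and Cd209b, a lectin gene of lymph node and splenic macrophages (-3.77 ± 0.27 SE, adjusted p = 1.23e-11). Maf, a transcription factor gene of resident macrophages, was at 35.2, 16.5, 33.4 and 29.9 CPM against 90.5, 71.1, 57.6 and 60.8 CPM, lower in each of the 4 mice (-1.25 ± 0.15 SE, adjusted p = 2.07e-06).

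Of the 8 MHC class II genes, 1 was higher and 1 lower, where 0.875% and 1.72% of all genes were (median 0.13). H2-Ab1 was at 8506, 9683, 9390.3 and 10383 CPM against 7584, 8163, 8872 and 10494 CPM (0.13 ± 0.05 SE, adjusted p = 0.292), and the lower gene was H2-DMb2, of a peptide-loading complex (-1.23 ± 0.26 SE, adjusted p = 0.00373).

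Of 28 type I interferon genes tested, 2 were higher and 6 lower, where 0.875% and 1.72% of all genes were (median log2 difference -0.21, against -0.04 over all genes tested). That list sits close to the barred genes Ifit1, Ifit2, Ifit3 and Rsad2, and nothing is read from its count. Ifi27l2a, an interferon-induced gene of monocytes, was the more abundant of the higher, at 3633, 5592, 3021 and 2217 CPM against 2285, 3166, 2198 and 1499 CPM (0.63 ± 0.05 SE, adjusted p = 1.42e-09), and it was higher in each mouse. None of 18 pattern recognition genes, 1 of 16 cell division genes and 2 of 23 trafficking genes passed, all 3 lower, where 1.72% of all genes tested were lower. Of 20 myeloid transcription factors 1 was higher and 5 lower, among them Nr1h3, the oxysterol receptor LXR alpha (-1.08 ± 0.13 SE, adjusted p = 6.53e-07).

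**Figure D4:**
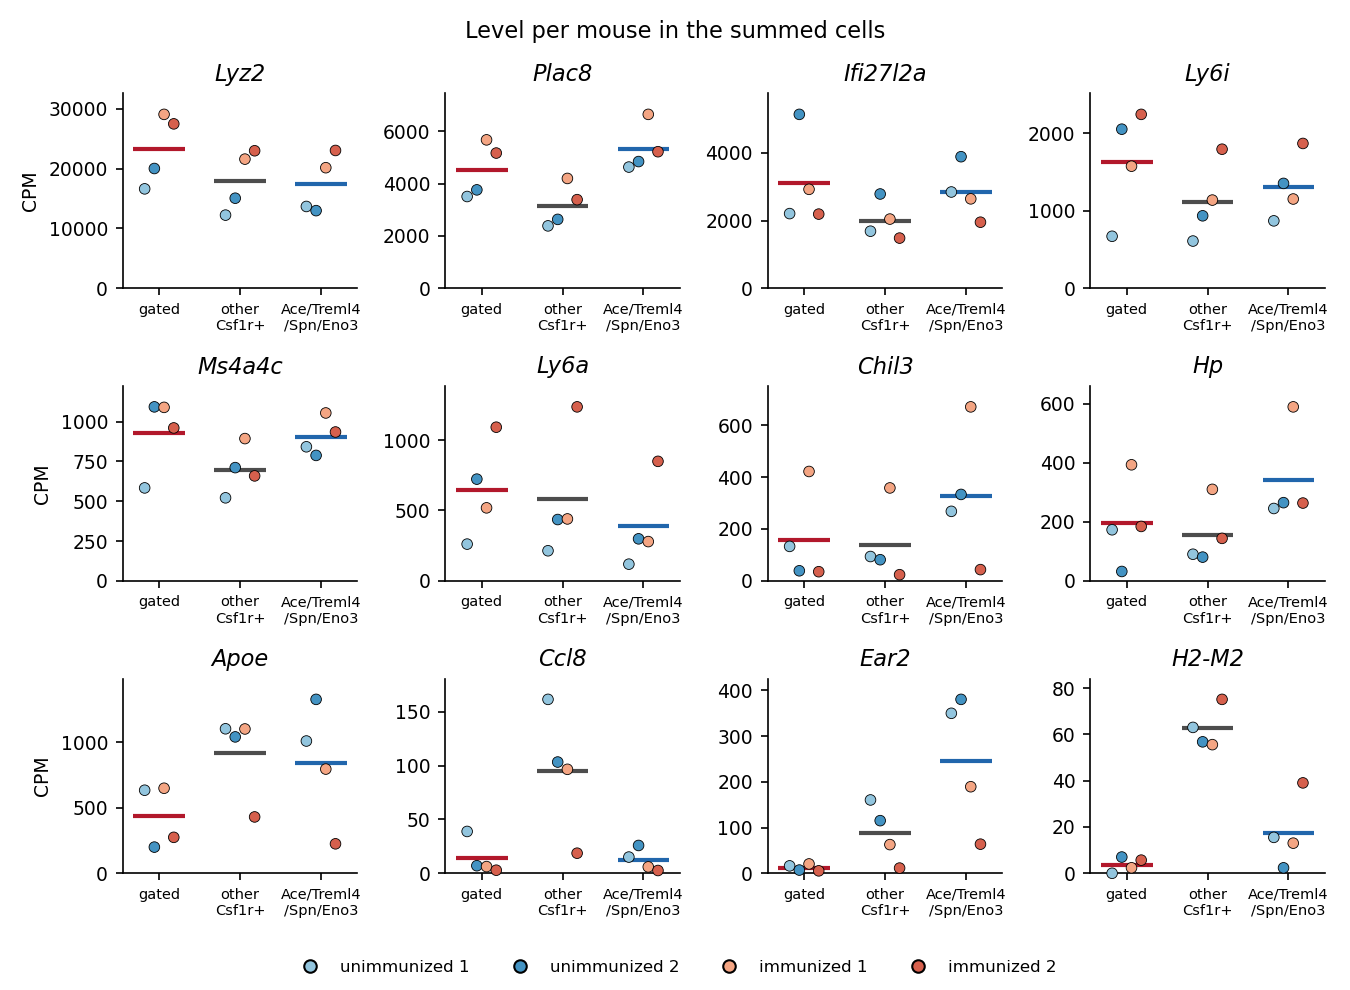
Level (CPM, linear axes) of 12 genes in the summed cells of each mouse, for all Ly6c2+Ccr2+ cells (gated), other Csf1r+ cells and nonclassical gate cells (Ace/Treml4/Spn/Eno3); points are mice and lines the mean of 4. Plac8 and Lyz2 are higher in the selected than in the other Csf1r+ cells of each mouse, H2-M2 and Ear2 are near 0 in the selected cells, and Chil3 is highest in immunized mouse 1 in every population.

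The Ly6c2+Ccr2+ cells were next compared with the 1279 nonclassical gate cells. With the mouse as a block they had less RNA of Ear2, Gngt2 and Nr4a1, genes of nonclassical monocytes, and more of the MHC class II genes H2-Ab1 and Cd74. Without the block 27 of 9932 genes (0.272%) passed, 3 higher and 24 lower in the Ly6c2+Ccr2+ cells. With the mouse as a block 176 were higher (1.77%) and 406 lower (4.09%), and without cells of other lineages 139 of 9665 (1.44%) and 329 (3.4%). DESeq2 called 122.

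Ear2 (ENSMUSG00000072596; chr14:44102654-44103534), a ribonuclease gene used as a marker of nonclassical monocytes, fell the most among the 10 named without the block. It was at 16.2, 7.01, 20.4 and 5.3 CPM in the Ly6c2+Ccr2+ cells and 349.6, 380.1, 189 and 63.6 CPM in the nonclassical gate cells, with no overlap (-4.08 ± 0.50 SE, adjusted p = 0.00783). Its level was lower in both immunized than in both unimmunized mice in the nonclassical gate cells.

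Gngt2, a G protein subunit gene, was at 493, 554, 780.1 and 531 CPM against 1481, 1499, 1770.5 and 1013 CPM (-1.29 ± 0.19 SE, adjusted p = 0.0204). Cebpb, a transcription factor gene needed for nonclassical monocytes, was at 448, 319, 759 and 875 CPM against 1365, 1105, 1214 and 1060.2 CPM (-1.07 ± 0.13 SE, adjusted p = 0.00848). The 2 populations did not overlap for either gene. Lilra5, an activating immunoglobulin-like receptor gene, also passed without the block (-2.34 ± 0.27 SE, adjusted p = 0.00573). Without cells of other lineages 18 of the 27 calls were kept. Ear2 (-4.07 ± 0.52 SE, adjusted p = 0.00717), Gngt2 (-1.18 ± 0.19 SE, adjusted p = 0.0322) and Lilra5 (-2.30 ± 0.27 SE, adjusted p = 0.0049) were among them, and Cebpb was not (-0.91 ± 0.19 SE, adjusted p = 0.097).

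Among the 3 genes higher without the block was S100a10, which encodes an annexin partner (1.04 ± 0.15 SE, adjusted p = 0.0204). That call depended on the cells of other lineages: its CPM was 456, 336, 198 and 191 with them and 120.2, 78.6, 179 and 191 without, and its difference was then 0.30 ± 0.17 SE, adjusted p = 0.572.

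In the blocked fit without cells of other lineages, 13 of 14 nonclassical monocyte genes were lower, where 3.4% of all genes were. The selection against Ace, Treml4, Spn and Eno3 bears directly on that count. Nr4a1, the factor these monocytes depend on, was at 29.3, 0, 12.5 and 2.15 CPM against 155, 68.5, 51.9 and 17.4 CPM (-2.52 ± 0.22 SE, adjusted p = 2.91e-09). Cx3cr1, the fractalkine receptor gene, was at 240.4, 95.1, 145 and 40.4 CPM against 436, 308, 318 and 94.7 CPM (-1.11 ± 0.10 SE, adjusted p = 3.13e-09). Both were lower in the selected cells of each mouse.

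Of 23 adhesion and trafficking genes tested, 9 were lower and none higher, where 3.4% of all genes were lower (median -0.43 against -0.01 over all genes). That list shares Cx3cr1 and Itgal with the nonclassical monocyte list. The nonclassical gate bears on its count too, and nothing is read from the count. Itgal, the LFA-1 alpha chain with which patrolling monocytes hold on to endothelium, was at 217, 103, 139.7 and 131 CPM against 608, 355, 362 and 224 CPM (-1.29 ± 0.10 SE, adjusted p = 2.36e-10), and its partner Itgb2 gave -0.58 ± 0.09 SE, adjusted p = 5.28e-05. Klf2, a transcription factor gene tied to lymphocyte and monocyte trafficking, gave -1.32 ± 0.12 SE, adjusted p = 4.34e-09. Over all selected cells DESeq2 gave a smaller Klf2 difference that did not pass (-0.60 ± 0.33 SE, adjusted p = 0.808).

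Of the 8 MHC class II genes, 6 were higher in the Ly6c2+Ccr2+ cells and none lower, where 1.44% of all genes were higher (median 0.50). H2-Ab1 was at 8506, 9683, 9390.3 and 10383 CPM against 5287, 6087, 6736 and 9493 CPM (0.52 ± 0.05 SE, adjusted p = 8.68e-08), and Cd74, the invariant chain that guides class II molecules, gave 0.46 ± 0.05 SE, adjusted p = 2.35e-07. H2-DMb1, of the peptide-loading complex, gave 0.67 ± 0.08 SE, adjusted p = 6.64e-07. These 3 were higher in each of the 4 mice.

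Other genes higher than in the nonclassical gate cells were Clec10a, a lectin gene of dendritic cells and macrophages (1.67 ± 0.20 SE, adjusted p = 1.26e-06), the chemokine gene Cxcl9 (1.22 ± 0.11 SE, adjusted p = 2.91e-09) and Ly6a (1.07 ± 0.09 SE, adjusted p = 1.24e-09). Cxcl9 was higher in 3 mice and lower in immunized mouse 2 (402, 409, 574 and 1533 CPM against 83.3, 103, 393 and 1629.7 CPM over the 4 mice). Over all selected cells DESeq2 gave Cxcl9 a smaller difference that did not pass (0.51 ± 0.65 SE).

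Of the 24 classical monocyte genes, 6 rose and 5 fell against the nonclassical gate cells, where 1.44% of all genes rose and 3.4% fell. Lyz2 (0.61 ± 0.05 SE, adjusted p = 4.31e-10), F13a1 (0.86 ± 0.23 SE, adjusted p = 0.0225) and Emb, which encodes a surface glycoprotein (0.62 ± 0.10 SE, adjusted p = 8.25e-05), were among the higher. Chil3 (-0.83 ± 0.15 SE, adjusted p = 0.000357), Hp (-0.69 ± 0.15 SE, adjusted p = 0.00336) and Ifitm6, an interferon-induced membrane protein gene (-0.62 ± 0.10 SE, adjusted p = 0.000123), were among the lower. Plac8 differed by -0.09 ± 0.05 SE, adjusted p = 0.51.

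The Ly6c2+Ccr2+ cells also varied among themselves. After cells with genes of other lineages or without Csf1r were set aside, 143 cells of immunized mouse 1 and 70 of immunized mouse 2 had a Chil3 UMI and 141 and 344 had none. The unimmunized mice gave 10 and 2 cells with Chil3, too few to compare. The split rests on a measured gene, so the values are a description with no test.

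In both immunized mice the cells with Chil3 carried more RNA of some classical and some nonclassical monocyte genes. Their Ly6c2 was at 1636 and 1327 CPM against 1055 and 856 CPM without Chil3. Vcan was at 60.9 and 22.6 against 19.4 and 7.75 CPM, and Hp at 555 and 348 against 279 and 152 CPM. Gngt2 was at 979.9 and 731 against 639 and 491 CPM, and Cebpb at 937 and 1144 against 628 and 840.1 CPM. Cd14, the lipopolysaccharide co-receptor gene and a classical monocyte gene of the list, was lower with Chil3, at 24.4 and 22.6 against 37.5 and 39.2 CPM.

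The same cells had less MHC class II RNA. H2-Ab1 was at 8132 and 8779.7 CPM with Chil3 and 10659.7 and 10702 CPM without. Itgax, the CD11c gene, was at 49.4 and 53.4 against 81.2 and 98.2 CPM. Median depths were close, 10714 and 11797 UMIs with Chil3 and 11292 and 12150 without.

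The last comparison asked what immunization did to the Ly6c2+Ccr2+ cells. The chemokine gene Cxcl10 had a higher level in both immunized mice. The 2 immunized mice differed widely from each other in some other interferon gamma genes, among them Gbp2, Iigp1 and Cxcl9. No gene passed the adjusted threshold in edgeR (0 of 10982, 0%), and 1602 had an unadjusted p under 0.05. DESeq2 called 71 higher (0.647%) and 229 lower (2.09%), and edgeR on the selected cells alone called 4 of 8838 higher (0.0453%) and 61 lower (0.69%).

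The cells with NK genes moved with this comparison. T and NK cell genes had a median log2 difference of -3.94 over the 13 tested, against 0.03 over all genes. DESeq2 called 9 of them lower, where it called 2.09% of all genes lower. Gzma was at 1846, 715, 155 and 12.3 CPM and Ncr1, an activating NK receptor gene, at 338, 123, 18 and 3.59 CPM. Without cells of other lineages edgeR called 0 genes in the shared fit (822 with an unadjusted p under 0.05) and 0 in the fit of the selected cells alone (592), and DESeq2 called 10 higher and 10 lower.

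Cxcl10, which draws CXCR3-bearing T and NK cells, was at 35.2, 37.2, 270.4 and 439.6 CPM without cells of other lineages. Both immunized mice lay above both unimmunized mice, with a log2 difference of 3.39 ± 0.40 SE, adjusted p = 0.186 in edgeR and 3.33 ± 0.46 SE, adjusted p = 2.55e-09 in DESeq2. The smallest Cxcl10 level rests on 12 UMIs in 36 cells of unimmunized mouse 1.

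All 20 interferon gamma genes had a higher fitted level in the immunized mice, with a median log2 difference of 1.34 against 0.07 over all genes tested, without cells of other lineages. None passed in edgeR, and Cxcl10 was the 1 called by DESeq2, which called 10 of all 7537 genes tested higher. In the other Csf1r+ cells of the same mice, which share the immunization, the median of the list was 1.21.

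Several of these genes were highest in immunized mouse 2. Gbp2, a guanylate-binding protein gene, was at 93.8, 74.5, 131 and 443 CPM, Iigp1, an immunity-related GTPase gene, at 11.7, 70.3, 92 and 456 CPM, and Cxcl9 at 402, 409, 574 and 1533 CPM. In each case immunized mouse 1 lay much nearer to the unimmunized mice than immunized mouse 2 did.

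Chil3 ran the other way, with 205, 45.5, 433 and 35.7 CPM, so immunized mouse 1 was the highest and immunized mouse 2 the lowest (0.92 ± 1.47 SE, adjusted p = 0.89). The same order of the immunized mice held in the other Csf1r+ cells (117, 103, 396 and 24.4 CPM) and the nonclassical gate cells (273, 347, 725 and 45.6 CPM). The 8 MHC class II genes had a median difference of 0.22, and none passed.

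Cd9, a tetraspanin gene, was lower in both immunized mice, at 61.6, 33.1, 9.36 and 9.17 CPM, and DESeq2 called it without cells of other lineages (-2.37 ± 0.44 SE, adjusted p = 0.00017), while edgeR did not (-2.32 ± 0.42 SE, adjusted p = 0.591). The 2 unimmunized levels rest on 21 and 8 UMIs. Cd9 was also lower in both immunized mice in the other Csf1r+ cells (110, 74.9, 41.6 and 29.5 CPM) and the nonclassical gate cells (128, 95.4, 40.1 and 30.3 CPM).

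**Figure D5:**
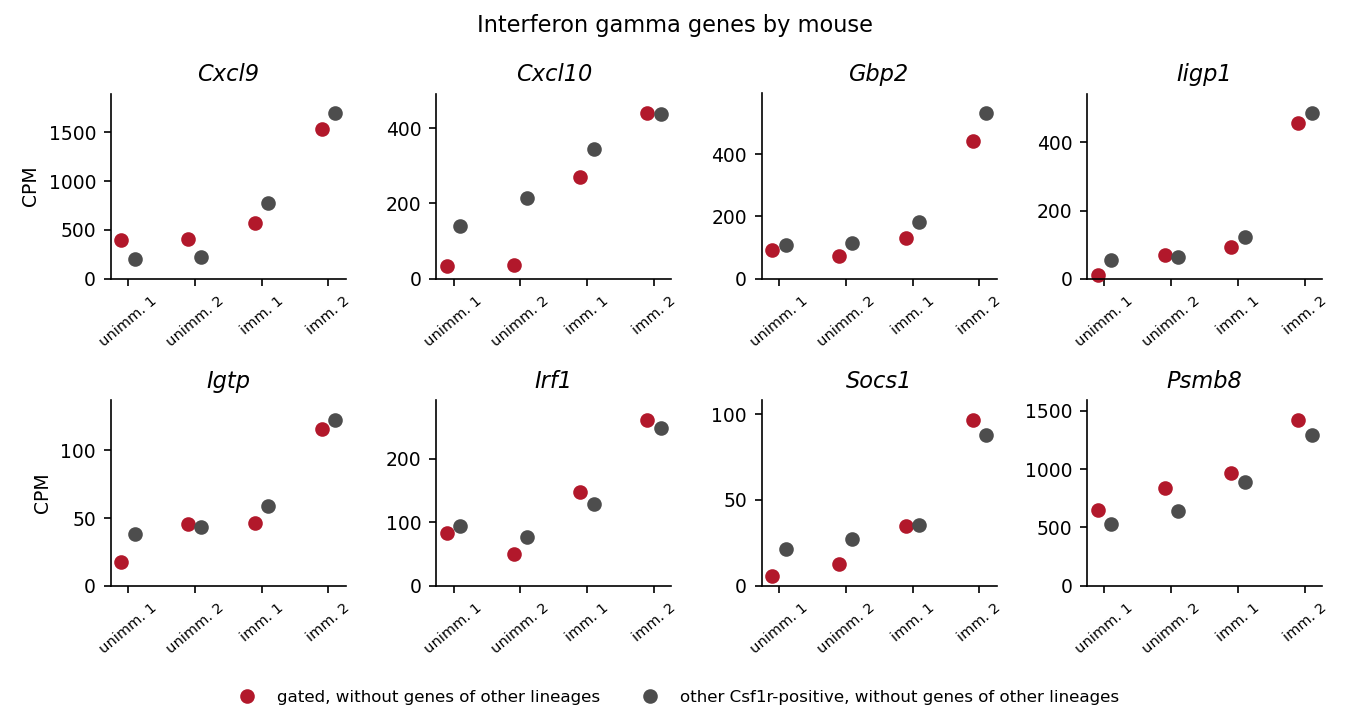
Level (CPM, linear axes) of 8 interferon gamma genes in each mouse, in Ly6c2+Ccr2+ cells without genes of other lineages (red) and in other Csf1r+ cells without them (grey), 1 point per mouse. Immunized mouse 2 is the highest in every panel, with Gbp2 at 443 CPM against 131 CPM in immunized mouse 1 in the selected cells.

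Whether immunization acted differently on these cells than on other Csf1r+ cells was tested as an interaction. No gene passed without the block (0 of 10982, 0%, with 342 at an unadjusted p under 0.05) or in DESeq2. With the mouse as a block 34 passed (0.31%), among them Gzma, Nkg7 and Klrd1, genes of NK cells. Without cells of other lineages 7 of 10624 passed (0.0659%), 2 higher and 5 lower.

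The 2 higher were Cxcl10 (2.10 ± 0.28 SE, adjusted p = 9.37e-05) and Ear2 (2.40 ± 0.43 SE, adjusted p = 0.0123). In the unimmunized mice Cxcl10 was at 35.2 and 37.2 CPM in the Ly6c2+Ccr2+ cells. Other Csf1r+ cells held more, at 141 and 215 CPM, while in the immunized mice the populations were closer. The 2 low levels rest on 12 and 9 Cxcl10 UMIs. The selection barred cells with 2 or more of the interferon-induced genes Ifit1, Ifit2, Ifit3 and Rsad2. Such cells stay among the other Csf1r+ cells, and their part in the Cxcl10 difference was not tested. Ear2 stayed low in the selected cells of all 4 mice, at 17.6, 8.27, 21.5 and 5.27 CPM, and in the other Csf1r+ cells it was at 224, 147, 63.6 and 11.1 CPM. The selected cells held only 6, 2, 69 and 27 Ear2 UMIs. Ear2 marks nonclassical monocytes, which the selection largely barred, so a fall could show in the other cells alone.

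Among the 5 lower were Cxcl9 (-1.19 ± 0.15 SE, adjusted p = 7.09e-05), Cd63, a tetraspanin gene of lysosomes (-1.75 ± 0.33 SE, adjusted p = 0.0248), the chemokine gene Ccl5 (-1.03 ± 0.20 SE, adjusted p = 0.0303) and Ly6a (-0.76 ± 0.15 SE, adjusted p = 0.0268). For Cd63 the levels were 120.2, 24.8, 18.7 and 13.1 CPM in the Ly6c2+Ccr2+ cells and 139, 114, 95.7 and 74.8 CPM in the other Csf1r+ cells. The populations were close in unimmunized mouse 1 alone, whose library of selected cells holds 36 cells. The other unimmunized library of selected cells holds 25 cells.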

How the data were processed

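The authors made the gene UMI counts with Cell Ranger 4.0.0 (count and aggr) on an mm10 reference and used CITE-seq-count for the counts of hashtags and antibodies they deposited. Whether aggr evened out depth was not given in the sources used. All 18662 barcodes were read, 0 columns were unused, and 621 sequences present in both captures were dropped. Kept were cells with at most 25% mitochondrial UMIs and 1 hashtag holding at least 80% of hashtag counts and 10 or more. This left 12139 cells (2828, 537, 4052 and 4722 per mouse); the study's own hashtag filter was not rebuilt.

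C1qa, C1qb and C1qc together could hold at most 2 UMIs in a selected cell. Members, gene lists and alternatives were chosen with earlier results of these data known. Counts were summed per mouse and population and tested with edgeR 4.0.16 in R 4.3.3 (TMM, filterByExpr, quasi-likelihood test, Benjamini-Hochberg at 0.05 over all genes tested). DESeq2 1.42.0, the mouse as a block, each mouse left out, other gates and filters, single captures and removal of likely doublets (scored with scanpy 1.11.5; 13 selected cells) were alternatives. The edgeR fit without the block was also run on simulated counts that held no shared mouse effect. The simulation does not cover the fit with the mouse as a block or DESeq2. The populations compared were taken from 1 and the same mouse by its hashtag, which pairs them. The deviations of paired libraries correlated at 0.229 in the unimmunized and 0.545 in the immunized mice. The mice are separate animals. Sequence tags are those in the deposited count files, and gene positions come from GENCODE on GRCm38. Genes named are those of the lists and, in each comparison, the 10 largest rises and 10 largest falls among called genes whose mean log2 CPM was 5 or more. Intervals are exact binomial. Some genes are not reported here.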

Additional observations from a re-analysis of the deposited data

Results flagged for a closer look

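The interaction test of edgeR with the mouse as a block called 3 genes, both with and without cells carrying genes of other lineages. It sets the immunization effect in the Ly6c2+Ccr2+ cells against that in the other Csf1r+ cells. The effect in the selected cells minus that in the others, on the log2 scale, was 1.39 for Cxcl10, 2.00 for Ear2 and -2.11 for Ccl5, and it became 2.10, 2.40 and -1.03 without those cells. None passed without the block (1.56 ± 0.51 SE, adjusted p = 1 for Cxcl10, 1.81 ± 1.59 SE, adjusted p = 1 for Ear2 and -2.34 ± 0.78 SE, adjusted p = 1 for Ccl5). For Cxcl10 the selected cells held 33, 9, 892 and 2284 UMIs, and 12, 9, 867 and 2252 without cells of other lineages. The selection barred cells with 2 or more of the interferon-induced genes Ifit1, Ifit2, Ifit3 and Rsad2. Such cells stay among the other Csf1r+ cells, and their part in the Cxcl10 difference was not tested. Ear2 marks nonclassical monocytes, which the selection largely barred and the other Csf1r+ cells include. The selected cells held 10, 2, 69 and 28 Ear2 UMIs. A fall could show in the other cells alone, so no difference in the immunization effect is read from Ear2. Ccl5 is also abundant in NK cells, whose genes were in 41.9% and 18.8% of the selected cells of the unimmunized mice and in 2.95% and 0.928% of those of the immunized mice. Their part in the remaining difference was not tested.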

How the results depend on the processing

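Results were recomputed under 24 alternative settings, which gave 204 values. Of these, 162 kept their direction or, for counts of genes, stayed close to the main count, 37 counts moved and 5 values reversed. For the Ly6c2+Ccr2+ cells against other Csf1r+ cells the count of 1 became 411 with the mouse as a replicate block, 276 with that replicate block and without cells carrying genes of other lineages, 31 in DESeq2, 336 with no filter on low counts, 3 with a hashtag share of 90%, and 0 with Ly6c2 at 2 or more, with the gate on thinned counts and in capture 1 alone (776, 857 and 693 genes with an unadjusted edgeR p under 0.05). Leaving out 1 mouse gave 0 to 35, with 0 without either unimmunized mouse. Against the nonclassical gate cells the count of 27 became 582 with the replicate block, 468 with the block and without cells of other lineages, 122 in DESeq2, 462 with no filter, 66 with Ly6c2 at 2 or more, 325 on thinned counts, 10 with a hashtag share of 90%, 9 in capture 2 alone and 53 without likely doublets. Leaving out 1 mouse gave 0 to 146.

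For immunization the count of 0 became 300 in DESeq2, 823 with no filter, 65 in the selected cells fitted alone, 1 with a hashtag share of 90%, 11 in capture 2 alone and 20 in DESeq2 without cells of other lineages. It was 0 to 342 with 1 mouse left out: 342 without immunized mouse 1 and 54 without immunized mouse 2. The interaction count of 0 became 60 with no filter, 34 with the replicate block, 7 with the block and without cells of other lineages, and 0 to 1 with 1 mouse left out. Where 1 mouse of a group was left, that mouse was assumed to vary like the others. The cause of these moves was not tested.

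The share among Csf1r+ cells reversed to -0.0207 points on thinned counts and to -1.23 without unimmunized mouse 1, with 3.96 the highest when 1 mouse was left out, and that of all cells was 2.37 to 5.71 points. The Ly-6G difference reversed to 0.00767 with Ly6c2 at 2 or more and to 0.00474 against cells with 2 or more Csf1r UMIs, where CD169 reversed to 0.0963. The unimmunized values rest on the fewest selected cells, 74 and 32.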

Other observations

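Of 3795 cells with 3 or more Ly6c2 and 1 or more Ccr2 UMIs, the other criteria turned away most, and the cells that failed 1 criterion alone differed from the 842 selected cells in single genes. The 381 cells that failed only by 2 or more of Ifit1, Ifit2, Ifit3 and Rsad2 had Isg15, a ubiquitin-like interferon-induced gene, at 978 CPM against 192 CPM in the selected cells, and their Plac8 (6860 CPM against 5201 CPM) and Chil3 (350 CPM against 178 CPM) were higher too. The 418 cells that failed only by C1q had C1qa at 1654 CPM, Chil3 at 42.3 CPM and a median depth of 13376 UMIs against 11277. These are sums over the cells of 4 mice, with no test.

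Along the Ly6c2 range, among cells that passed every other criterion, Chil3 was at 40.6 CPM in 114 cells with 3 Ly6c2 UMIs, 133 CPM in 264 cells with 5 to 9 and 422 CPM in 152 cells with 20 or more. Plac8 went from 4153 to 6679 CPM over the same range, while Csf1r was at 422 and 515 CPM. The sums mix mice, and immunized mouse 1 holds most Chil3 UMIs.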
